A study of Capsicum annuum and Capsicum chinense and Capsicum annuum var. glabriusculum with 33 samples.

Results

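Root, stem and leaf of HYL, an inbred line of Capsicum chinense, were set against the same organs of ZL1 (Zunla 1), an inbred line of C. annuum. The members are 6 of the 33 libraries of the series, chosen by line and organ from the sample titles, with 3 libraries per line and 1 library for each line and organ. The labels give seedlings as the source of all 3 HYL libraries. The ZL1 libraries were made from developing roots, developing stems and mature leaves, which the study's design text places at full bloom. The same text speaks of similar organs from other lines without a stage, so the stage of the HYL plants rests on their sample labels. By those labels line and plant stage were the same split, and a difference between lines cannot be told apart from a difference between seedlings and older plants. The labels name no agent, transgene or mutation for either line. Poly(A) RNA was sequenced, and each gene's level is given as RPKM, a read density scaled for the length of the gene model and the size of the library.

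C. annuum and C. chinense are closely related domesticated peppers, with sweet and chilli types in the first and the habanero types in the second. A root takes up water and minerals and holds no leaf-type photosynthetic tissue, a stem carries the vascular strands that join root and leaf, and a leaf is the main site of photosynthesis. A seedling stem is a young, still elongating axis, whereas the stem of a flowering plant also holds older, thickened tissue. Because these organs are mixtures of cell types, fewer cells of a type and less RNA per cell cannot be told apart in any value below.

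The 6 libraries had similar depth, between 12691809 and 14214777 reads as recovered from the steps between values. A gene model of 1 kb with 3 reads then stood at 0.211 to 0.236 RPKM, which as a floor accounts for counting error alone. The table lists gene IDs that the files do not pair with names, and 0 of them matched the gene table used here, so no gene below has a stated product. Both lines were counted on 1 set of gene IDs, and whether reads of C. chinense match these gene models as well as reads of C. annuum was not tested. Silence or a low level in HYL can therefore not be told apart from a loss of matching reads.

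Root and leaf of HYL resembled their ZL1 counterparts more than HYL stem resembled ZL1 stem. Across the 19903 genes that reached 1 RPKM in 3 or more of the 6 libraries, Pearson's r on log2(RPKM + 1) was 0.87 between the roots, 0.85 between the leaves and 0.79 between the stems. These correlations run across genes, which are not independent replicates, and each rests on a single pair of libraries. Each HYL organ was nearest to the ZL1 organ of the same label. HYL stem stood at r = 0.79 with ZL1 stem, 0.74 with ZL1 leaf and 0.72 with ZL1 root. HYL leaf stood at 0.85 with ZL1 leaf, 0.79 with ZL1 stem and 0.62 with ZL1 root.

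**Figure D1:**
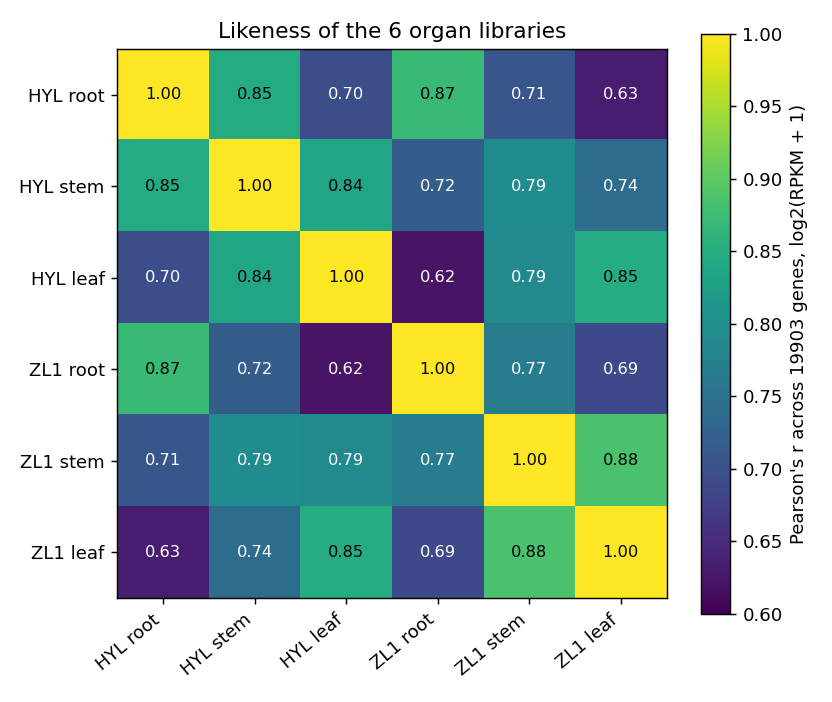
Pearson's r across 19903 genes between the 6 organ libraries, on log2(RPKM + 1), with HYL libraries above and left of ZL1 libraries. HYL stem is closest to HYL root (0.85) and HYL leaf (0.84), while ZL1 stem is closest to ZL1 leaf (0.88) and stands at 0.77 with ZL1 root.

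The stem of each line was also placed between its own leaf and root, with 0% at the leaf value and 100% at the root value of the same line. The genes for this were picked without any stem value, after the likeness of the libraries had been seen. They were 744 genes at least 4-fold higher in root than in leaf in both lines, and 739 genes at least 4-fold higher in leaf than in root in both, all at 10 RPKM or more in the higher organ. For the root genes the median position was 48.2% in HYL stem and 18% in ZL1 stem. HYL stem lay nearer to the root end than ZL1 stem did for 524 of the 744 genes (70.4%). Its own position was above 50% in 360 of them (48.4%), against 173 (23.3%) for ZL1 stem. For the leaf genes the medians were 37.8% in HYL stem and 27.2% in ZL1 stem. HYL stem was nearer to the root end than ZL1 stem for 467 of 739 (63.2%). Its own position was above 50% in 248 of them (33.6%), against 163 (22.1%) for ZL1 stem. Among the root genes 156 (21.0%) were at least 4-fold higher and 37 (4.97%) at least 4-fold lower in HYL stem than in ZL1 stem. Among the leaf genes these were 42 (5.68%) and 57 (7.71%), against 5.55% and 4.99% of all genes tested. This is a description of 1 stem library per line, with no test. Because stem stands apart, the number of calls over the organs is given below with and without it. Without stem 0 genes were called, so later readings of the called genes exist only with stem included.

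Over the 3 organs, 1032 of the 19903 genes tested differed between HYL and ZL1 (5.19%), of which 410 were higher in HYL (2.06%) and 622 lower (3.13%). The test was limma on log2(RPKM + 1) with organ as a block and a Benjamini-Hochberg adjusted p under 0.05. All 1032 differed at least 2-fold and 709 at least 4-fold, with 269 of these higher and 440 lower in HYL. The median log2 difference was 2.30 among the higher and -2.38 among the lower genes, against 0.06 over all genes tested. In 339 of the higher genes all 3 HYL values lay above all 3 ZL1 values, as they did in 10.2% of all genes tested, and in 556 of the lower genes all 3 lay below, as in 9.04% of all genes. All 410 higher and all 622 lower genes differed in 1 direction in each of the 3 organs, and 407 and 617 of them did so by at least 2-fold in each, which the test favours and which is given as a description.

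The number of calls rested on few organ pairs. With organ as a block, a library left out takes its partner in the other line out of the estimate too. The log2 difference of a gene was thus the same whichever line's library was left out, and 1 residual degree of freedom remained. Counts for the same organ can then differ only through the genes tested and the spread pooled over genes. With either stem left out, or both, limma called 0 genes, with 3047 at an unadjusted p under 0.05 without HYL stem, 2796 without ZL1 stem and 3284 without both. The count was 147 without HYL leaf, 1 (Capana08g002048) without ZL1 leaf and 662 without ZL1 root, and it was 370 with no filter on low values, 591 with a filter of 5 RPKM and 447 without organ as a block. In root and leaf alone the median mean difference of the called genes was 2.17 (log2) for the higher and -2.32 for the lower genes. These genes were called with the same root and leaf values, which favours large differences there. The medians are therefore a description and do not show that the calls hold without stem.

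**Figure D2:**
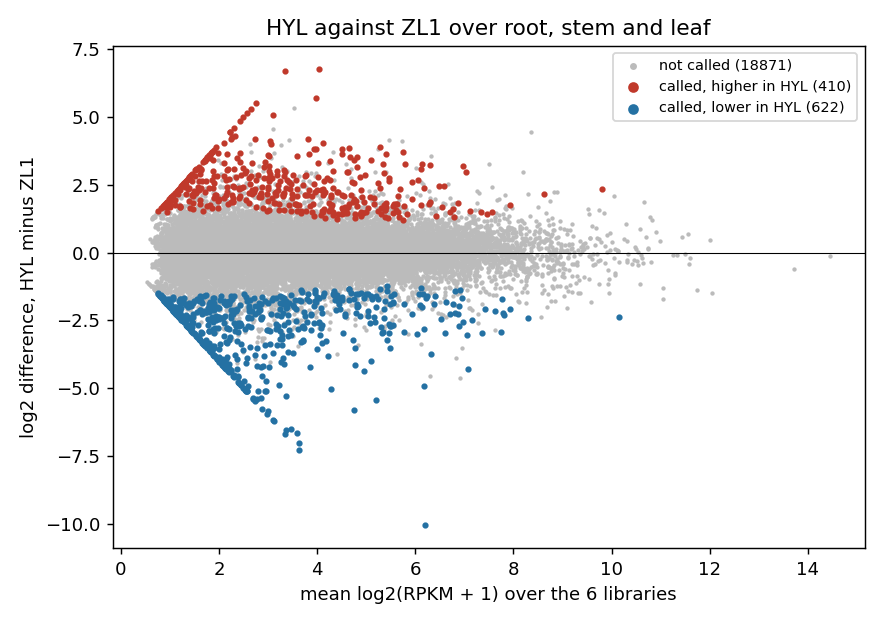
Log2 difference HYL minus ZL1, the mean over 3 organs, against the mean log2(RPKM + 1) of the 6 libraries, 1 point per gene. Red points are the 410 genes called higher and blue points the 622 called lower in HYL. The 2 straight edges at low levels are genes close to 0 in 1 of the lines.

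Many called genes were nearly silent in 1 line. Of the 622 lower genes, 343 averaged under 1 RPKM in HYL, and of the 410 higher genes, 142 averaged under 1 RPKM in ZL1. The share of all tested genes at such means is not given, so these counts do not set called genes apart from other genes. Low genes were called more often, with 9.77% called in the lowest of 5 equal groups by mean level and 2.86% in the highest. A mean of 10 RPKM or more in the higher line was reached by 301 of the higher and 385 of the lower genes. The named genes come from these, as the 2 largest differences each way among genes whose 3 values per line did not overlap.

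Capana08g002048 had the largest fall. It stood at 0.538, 1.42 and 1.97 RPKM in root, stem and leaf of HYL, against 1951, 7310 and 953 RPKM in root, stem and leaf of ZL1. The means were 1.31 ± 0.724 RPKM in HYL and 3405 ± 3419 RPKM in ZL1 (SD over the 3 organs, n = 3 each), a limma log2 difference of -10.06 (SE 0.603, adjusted p = 0.00784). In ZL1 it was a highly abundant transcript in every organ and highest in stem, and no HYL organ came near the lowest ZL1 value. It lost its call without either stem, at limma adjusted p between 0.0603 and 0.129. It was also low in HYL fruit, at 0 in mature green fruit and 1.6 RPKM in fruit 5 days after breaker (the stage at which fruit starts to turn colour), against 704 and 89.8 RPKM in the same fruit of ZL1.

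Capana05g001909 was listed at 0 in all 3 HYL organs, and had 106, 179 and 190 RPKM in root, stem and leaf of ZL1. Against a floor of 3 reads over the 3 HYL libraries together it was at least 851-fold lower in HYL, and limma gave an adjusted p of 0.00563. It lost its call without HYL stem (limma adjusted p = 0.0603) or without both stems (0.0807), and left the tested genes when any ZL1 library was left out. It was listed at 0 in chiltepin leaf too, so its absence was not limited to HYL. Among mature green fruit of the 8 other C. annuum lines its lowest value was 0 RPKM (ZJ32 and ZJ9), its median 66.8 RPKM and its highest value 123 RPKM (ZJ49).

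Capana03g000778 had the largest rise. It stood at 80.6, 1982 and 30.3 RPKM in root, stem and leaf of HYL, against 1.18, 0.298 and 0.330 RPKM in root, stem and leaf of ZL1. Its limma log2 difference was 6.79 (SE 1.16, adjusted p = 0.0383), with HYL stem far above the other 2 HYL organs. Without either stem or either leaf, with no filter or without organ as a block it lost its call, at limma adjusted p between 0.0658 and 0.129. The gene was not silent in ZL1 fruit, with 879 RPKM in mature green fruit and 454 RPKM in fruit 5 days after breaker. HYL had 548 and 11.1 RPKM in the same fruit. Nor was it silent elsewhere in C. annuum, with 12479 RPKM in chiltepin leaf and at least 523 RPKM in mature green fruit of each of the 8 other C. annuum lines.

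Capana01g003030 was even across the organs, at 137, 102 and 76.9 RPKM in root, stem and leaf of HYL, and was listed at 0 in all 3 ZL1 organs. Against a floor of 3 reads over the 3 ZL1 libraries together it was at least 1045-fold higher in HYL, and limma gave an adjusted p of 0.00563. It lost its call without ZL1 stem (limma adjusted p = 0.129), without ZL1 leaf (0.0702) or without both stems (0.0807), and left the tested genes when any HYL library was left out. Its level in chiltepin leaf was 22.0 RPKM, between the 2 lines. In mature green fruit of the 8 other C. annuum lines it had a median of 14.3 RPKM. The lowest value there was 0 RPKM (ZJ9) and the highest 70.6 RPKM (SP3), so the gene was not silent throughout C. annuum.

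**Figure D3:**
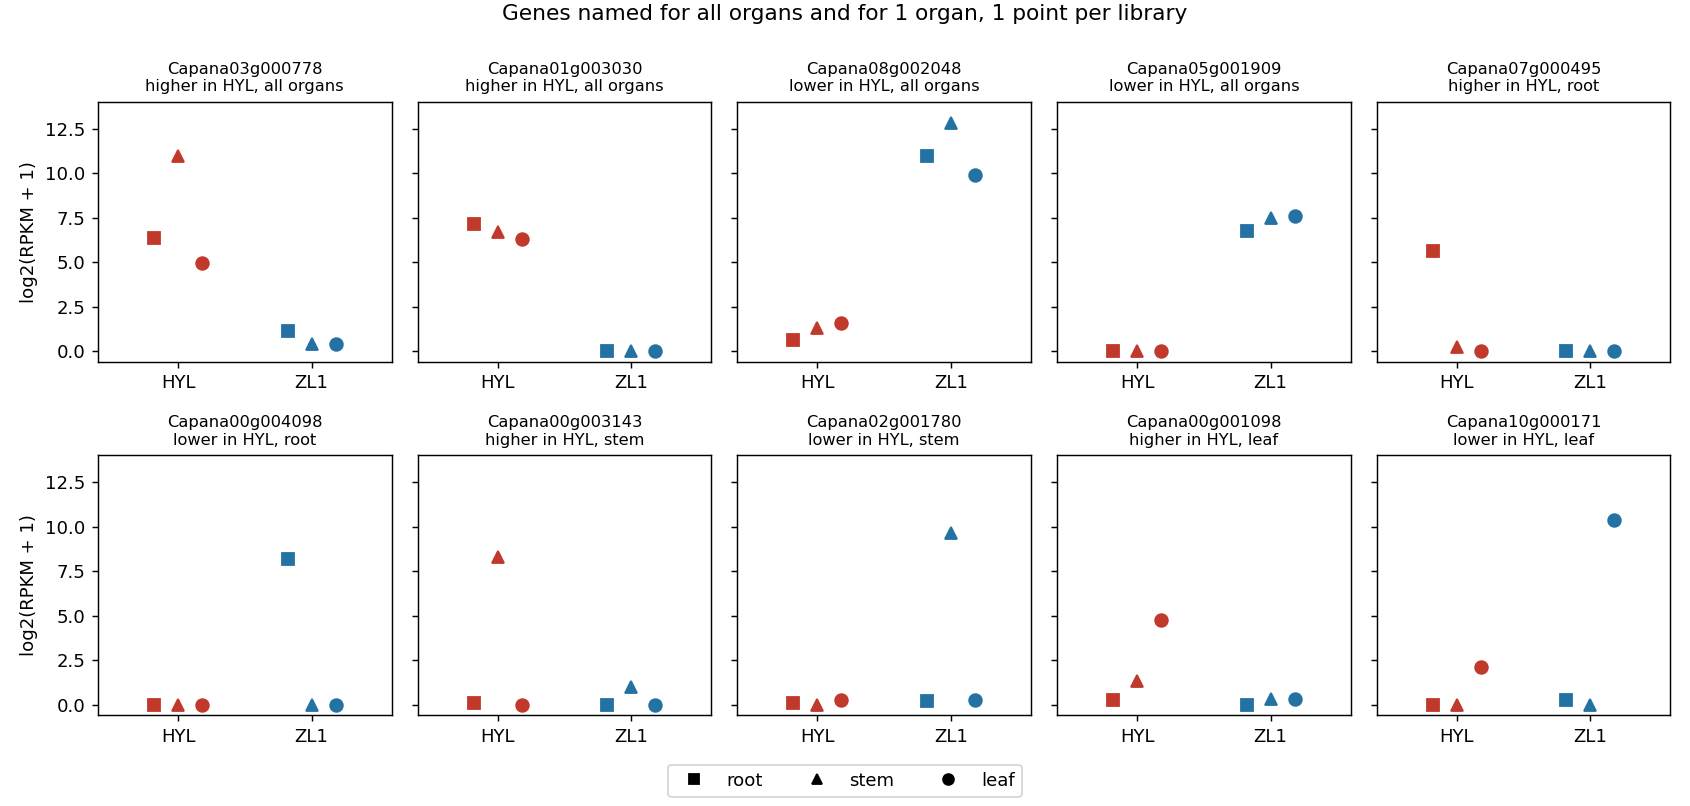
Level of 10 named genes on a log2(RPKM + 1) axis, 1 point per library, HYL left and ZL1 right, with squares for root, triangles for stem and circles for leaf. The first 4 genes, such as Capana08g002048 and Capana01g003030, separate the lines in every organ. The other 6 separate the lines in 1 organ and lie close to 0 in nearly all other libraries.

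There were 69 genes listed at 0 in all 3 HYL organs and at 5 RPKM or more in all 3 ZL1 organs, and 16 genes with the opposite pattern. Of the 69, 58 were also listed at 0 in both HYL fruit libraries (mature green and 5 days after breaker), and of the 16, 9 were at 0 in both ZL1 fruit libraries. Chiltepin, the wild form of C. annuum, had 48 of the 69 at 1 RPKM or more in leaf, and 68 of them reached that level in mature green fruit of at least 1 of the 8 other C. annuum lines. Of the 16 genes seen in HYL and not in ZL1, 9 reached 1 RPKM in chiltepin leaf and 9 in mature green fruit of another C. annuum line. With 1 RPKM in place of 5 RPKM the numbers were 219 genes silent in HYL and 83 silent in ZL1. All these counts stand without a share over other genes beside them and are a description.

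Taken organ by organ, the lines were farthest apart in stem. At least 4-fold differences were found in 1207 genes in root (557 higher and 650 lower in HYL, 2.8% and 3.27% of genes tested), in 2097 genes in stem (1104 higher and 993 lower, 5.55% and 4.99%) and in 1484 genes in leaf (482 higher and 1002 lower, 2.42% and 5.03%). Each organ is 1 library against 1, so these counts have no replicate check and no test. With a pseudocount of 0.1 RPKM the counts were 2224 in root, 3388 in stem and 2650 in leaf, so stem stayed first. In stem the excess of higher genes turned with median-of-ratios scaling, which gave 944 higher and 974 lower. In leaf the lower genes were in the majority with the deposited values and with scaling, which gave 419 higher and 907 lower.

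**Figure D4:**
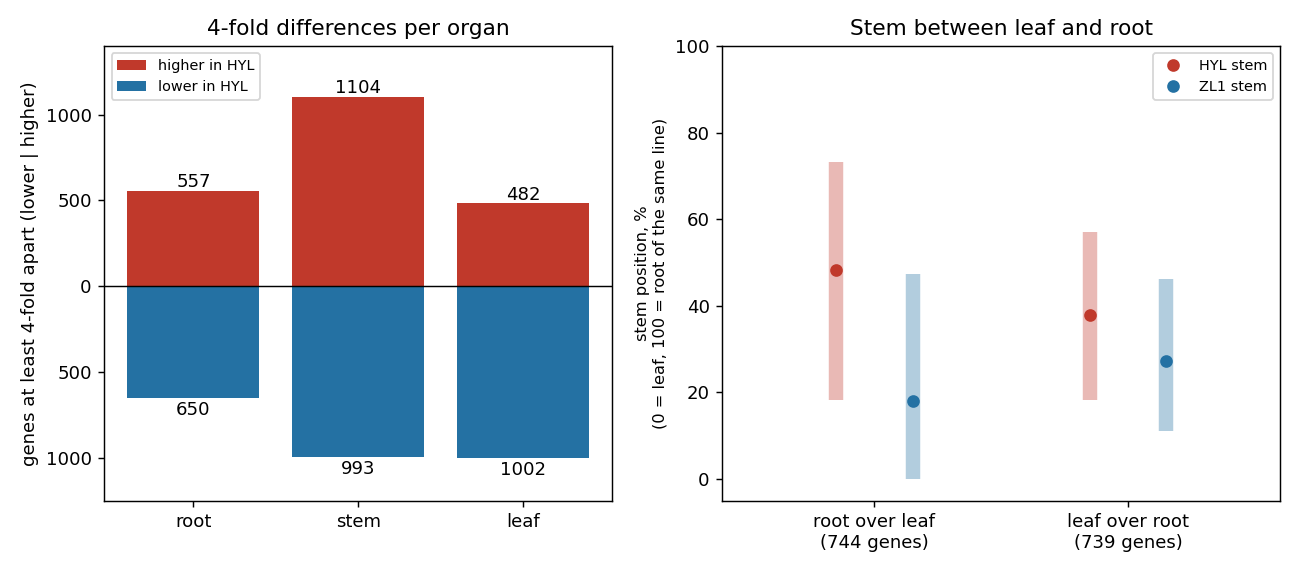
Left, genes at least 4-fold higher in HYL (red, upward bars) or lower in HYL (blue, downward bars) in each organ, of 19903 genes. Right, position of the stem between leaf (0%) and root (100%) of the same line, with dots at the median and bars from the first to the third quartile over 744 root genes and 739 leaf genes, where HYL stem has medians of 48.2% and 37.8% and ZL1 stem 18% and 27.2%.

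Most 4-fold differences were seen in a single organ. Of the genes 4-fold higher in HYL in any organ, 1143 were so in exactly 1 organ, 305 in 2 and 130 in all 3, and of those 4-fold lower 1097, 399 and 250. Stem alone held 694 of the higher and 405 of the lower genes of a single organ. Of the genes higher in exactly 2 organs, 153 were shared by root and stem, 127 by stem and leaf and 25 by root and leaf. Of the genes lower in exactly 2, stem and leaf shared 229, root and stem 109 and root and leaf 61. Of the genes in these counts, 86 were 4-fold higher in 1 organ and 4-fold lower in another and so stand under both directions.

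Whether the difference between lines itself differed in 1 organ was tested with a line by organ term, which leaves 1 residual degree of freedom and assumes that the lone organ varies like the others. No gene passed for root, stem or leaf (limma, 0 of 19903 genes each, 0%). The lowest adjusted p was 0.110 for root, 0.731 for stem and 0.610 for leaf, and 898, 1285 and 1251 genes had an unadjusted p under 0.05. A gene named below for 1 organ is therefore named by the size of its values and not by a test.

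In root, Capana07g000495 stood at 47.3 RPKM in HYL and was listed at 0 in ZL1, with at most 0.154 RPKM in stem or leaf of either line. Capana00g004098 had the reverse pattern, listed at 0 in HYL root and at 288 RPKM in ZL1 root, and listed at 0 in the 4 stem and leaf libraries. Both were root transcripts of 1 line only among these 6 libraries. In the flower libraries of ZL1 and chiltepin, Capana07g000495 was at 0 and 0.354 RPKM.

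In stem, Capana00g003143 stood at 319 RPKM in HYL and 1.02 RPKM in ZL1, and at no more than 0.0709 RPKM in root or leaf of either line. It was also present in HYL mature green fruit at 302 RPKM, against 0.652 RPKM in ZL1 mature green fruit. It was not absent from C. annuum fruit, with 129.8 RPKM in ZL1 fruit of 0 to 1 cm, 71.4 RPKM in ZJ9 mature green fruit and 138 RPKM in chiltepin breaker fruit. Capana02g001780 was listed at 0 in HYL stem and stood at 785 RPKM in ZL1 stem, with at most 0.181 RPKM in root or leaf. Outside the 6 libraries it was found at 24.7 RPKM in open flowers of ZL1 and at 61.2 RPKM in the mix of buds and flowers of chiltepin.

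In leaf, Capana00g001098 stood at 25.6 RPKM in HYL and 0.271 RPKM in ZL1, and chiltepin leaf had 1.41 RPKM. Capana10g000171 stood at 3.30 RPKM in HYL leaf and 1314 RPKM in ZL1 leaf, and chiltepin leaf, at 1487 RPKM, was close to ZL1. In root and stem of both lines Capana10g000171 was at or below 0.199 RPKM. The chiltepin leaf library was a mix of 4 plant stages, seedlings included.

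Organ-enriched genes of ZL1 were looked up in HYL. They were genes at 10 RPKM or more in 1 organ of ZL1 and at least 4-fold above both other organs, a choice in which HYL took no part. Of 802 root genes, 370 (46.1%) were at least 4-fold enriched in HYL root and 707 (88.2%) were highest in HYL root. Of 152 stem genes, 22 (14.5%) were 4-fold enriched in HYL stem and 102 (67.1%) highest there. Of 267 leaf genes, 60 (22.5%) were 4-fold enriched in HYL leaf and 171 (64.0%) highest there. A 2-fold limit in HYL gave 69.1%, 34.2% and 43.8% for root, stem and leaf.

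The lookup was also made the other way, from HYL to ZL1. Of 559 root genes of HYL, 336 (60.1%) were 4-fold enriched in ZL1 root. Of 121 stem genes 26 (21.5%) were enriched in ZL1 stem, and of 329 leaf genes 55 (16.7%) in ZL1 leaf. In both directions root kept the largest share, while stem and leaf changed places at the 4-fold limit. A 2-fold limit in ZL1 gave 79.4%, 36.4% and 46.8% for root, stem and leaf. At 2-fold, leaf thus stood above stem in both directions. The level itself was lower in the line that had not been used for the choice, as such a choice brings about. The median log2 difference HYL minus ZL1 was -0.64 for ZL1 root genes, -1.55 for ZL1 stem genes and -1.50 for ZL1 leaf genes, and 0.25, 2.37 and 0.49 for root, stem and leaf genes chosen in HYL.

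Capana00g003322, the ZL1 root gene with the highest level in HYL root, stood at 10233, 7087 and 776 RPKM in root, stem and leaf of HYL, against 12762, 1984 and 537 RPKM in root, stem and leaf of ZL1. Root was its highest organ in both lines, with stem close behind in HYL. Capana09g002161 had its peak elsewhere in HYL, at 45.6, 409 and 4.08 RPKM in root, stem and leaf of HYL, against 357, 1.69 and 2.25 RPKM in root, stem and leaf of ZL1. Its high value was thus in HYL stem and in ZL1 root.

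Among ZL1 stem genes, Capana00g004655 stood at 759, 1027 and 79.7 RPKM in root, stem and leaf of HYL, against 65.3, 509 and 32.7 RPKM in root, stem and leaf of ZL1. Stem was highest in both lines, with root nearer to it in HYL. Capana02g002550 stood at 27.8, 1.38 and 1.30 RPKM in root, stem and leaf of HYL, against 1.03, 143 and 9.19 RPKM in root, stem and leaf of ZL1, so that root and not stem was its highest organ in HYL.

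Among ZL1 leaf genes, Capana06g002516 stood at 41.3, 83.3 and 1987 RPKM in root, stem and leaf of HYL, against 106, 77.2 and 1003 RPKM in root, stem and leaf of ZL1, and was a leaf transcript in both. Capana10g000285 was listed at 0 in HYL root and stood at 181 RPKM in HYL stem and 0.390 RPKM in HYL leaf, while in ZL1 it was listed at 0 in root and stem and stood at 111 RPKM in leaf. In chiltepin it was far higher in flower (2363 RPKM) than in leaf (5.41 RPKM).

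Gene groups taken from libraries outside the 6 gave a further view of the organs. They were chosen with earlier results of these data known, and each group is described by its counts and median. Over all 19903 genes 5.19% were called, and the median log2 difference was 0.06 over the organs, 0.10 in root, 0.05 in stem and -0.01 in leaf. A group of 408 tested chiltepin leaf genes (at least 4-fold above chiltepin flower and breaker fruit) had 7 higher and 7 lower calls (3.43%) and a median of 0.10. Its summed level was 15181, 36210 and 79862 RPKM in root, stem and leaf of HYL, against 27902, 35914 and 74288 RPKM in root, stem and leaf of ZL1, and its median log2 difference was 0.28 in root, -0.04 in stem and -0.08 in leaf. In root the sum and the median differ in direction, with 62.0% of the group higher in HYL, 30 genes (7.35%) at least 4-fold higher and 15 (3.68%) at least 4-fold lower. In both lines the leaf group was highest in leaf and lowest in root, as the organ labels have it.

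The young fruit group holds 1341 tested genes at least 4-fold higher in ZL1 fruit of 0 to 1 cm than in ZL1 mature green fruit, of which 20 were called higher and 64 lower in HYL (6.26%). Its genes were picked on ZL1 fruit alone, at 10 RPKM or more, so genes silent in that fruit could not enter while genes silent in HYL could. The part of this choice in the shares below was not tested. In stem 172 of them (12.8%) were at least 4-fold higher in HYL, against 5.55% of all genes, and 115 (8.58%) were lower. In leaf 158 of them (11.8%) were at least 4-fold lower in HYL, against 5.03% of all genes, and 30 (2.24%) were higher, with a median log2 difference of -0.37 in leaf, 0.11 in stem and 0.05 over the organs. The group's summed level was 117843, 202675 and 130664 RPKM in root, stem and leaf of HYL, against 139479, 140969 and 151219 RPKM in root, stem and leaf of ZL1. Its high total in HYL stem rests on a single library.

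Of 680 genes at least 4-fold higher in the 3 bud and flower libraries of ZL1 and chiltepin than in leaf and fruit, 180 passed the filter on low values, and 3 of these were called higher and 11 lower in HYL (7.78%). The median log2 difference of the 180 was -0.25 in root, -0.36 in stem and -0.34 in leaf. Over the organs it was -0.33 and moved between -0.47 with a pseudocount of 0.1 RPKM and -0.09 with no filter. The mature green group of ZL1 fruit (431 tested genes) had 17 higher and 17 lower calls (7.89%) and a median of 0.04, and the ripe fruit group from ZJ49 and ZJ7 (159 tested genes) had 8 and 8 (10.1%) and a median of -0.15. Before the filter on low values, no HYL library was used to pick the leaf, flower, mature green or ripe genes either.

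A last group held genes that vary among single libraries of other pepper lines. They were the most variable 10% of the tested genes over mature green fruit of 8 C. annuum lines other than ZL1. Those libraries had between 14271249 reads (ZJ32) and 31213971 reads (11c255). The part of depth or of a single library per line in this choice was not tested. Of its 1990 genes 92 were called higher and 118 lower in HYL (10.6%, against 5.19% of all genes). Its median log2 difference was 0.15 over the organs, 0.37 in stem and -0.30 in leaf. In stem 19.2% of the group were at least 4-fold higher and 12.1% at least 4-fold lower in HYL, against 5.55% and 4.99% of all genes. In leaf 6.68% were higher and 13.9% lower, against 2.42% and 5.03% of all genes.

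The called genes were then read in fruit, in 4 libraries of HYL and ZL1 that took no part in the comparison. Of the 410 genes called higher in the organs of HYL, 358 (87.3%) were higher in HYL fruit on the mean of the mature green and the later stage (5 days after breaker), and 245 (59.8%) by at least 2-fold. Of the 622 called lower, 554 (89.1%) were lower in HYL fruit and 440 (70.7%) by at least 2-fold. Among the 18871 genes without a call the fruit difference had the same sign as the organ difference in 55.1%, and at least 2-fold with that sign in 16.4%. With the same sign required in both stages, 289 (70.5%) of the higher and 488 (78.5%) of the lower genes kept it. Among the genes without a call 34.1% did. The median fruit difference was 1.36 (log2) for the higher and -1.84 for the lower genes, against 2.30 and -2.38 in the organs.

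**Figure D5:**
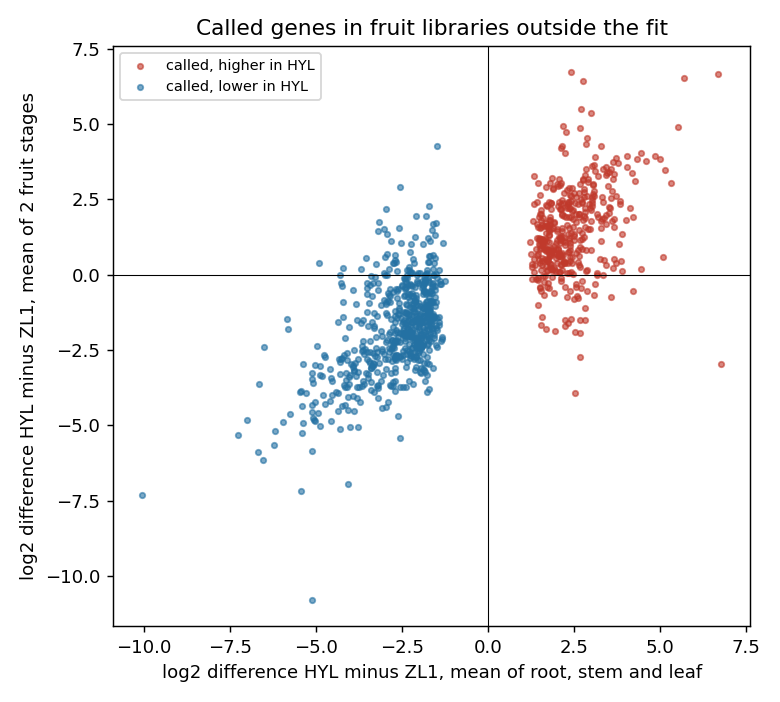
Log2 difference HYL minus ZL1 in fruit (mean of 2 stages) against that in the vegetative organs (mean of root, stem and leaf) for the 1032 called genes, 1 point per gene, red for higher and blue for lower in HYL. Most points lie at the upper right and lower left, with 87.3% of the higher and 89.1% of the lower genes keeping their sign in fruit.

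A minority went the other way. In 63 of the 1032 called genes (6.10%) both fruit stages had the opposite sign. The share of other genes with that pattern is not given, so this count is a description. On the mean of the stages, 17 of the higher (4.15%) and 23 of the lower genes (3.70%) were at least 2-fold opposite. Among the genes without a call 9.89% were. Capana01g002745 stood at 4.67, 9.12 and 12.97 RPKM in root, stem and leaf of HYL, against 15.9, 32.0 and 30.04 RPKM in root, stem and leaf of ZL1. In fruit it stood at 98.9 RPKM (mature green) and 106 RPKM (5 days after breaker) in HYL, against 5.52 and 3.36 RPKM in ZL1. The organ values were all lower in HYL and the fruit values far higher. Its limma adjusted p over the organs was 0.0436, and it lost the call when any of the 6 libraries was left out, with limma adjusted p between 0.1001 and 0.229.

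Capana05g000365 had the reverse pattern, at 14.4, 21.4 and 8.54 RPKM in root, stem and leaf of HYL, against 2.62, 0.588 and 2.04 RPKM in root, stem and leaf of ZL1. It was listed at 0 in both HYL fruit libraries, where ZL1 had 11.9 and 16.6 RPKM. Its limma adjusted p over the organs was 0.0490, and 10 alternatives ended that call, with limma adjusted p from 0.0516 to 0.184.

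A test of the fruit difference against the organ difference, added once the data had been seen, fitted all 10 libraries of both lines with limma. It called 3 of 20983 genes (0.0143%), Capana01g002745, Capana05g002154 and Capana08g000079, each at an adjusted p of 0.0496 (limma). The last 2 lay outside the rule for named genes and are named because they were called. Capana08g000079 was listed at 0 in all 3 HYL organs and stood at 566 and 1714 RPKM in HYL fruit, against at most 2.39 RPKM in ZL1 organs and 8.22 and 49.5 RPKM in ZL1 fruit. Capana05g002154 was near 0 in the organs of both lines, and stood at 0 and 9.61 RPKM in HYL fruit, against 191 and 1038 RPKM in ZL1 fruit. Neither was called over the organs. Capana05g000365 had a limma adjusted p of 0.0831 and Capana03g000778 of 0.108 in that test.

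The called genes were last read in lines other than ZL1. Of the 410 higher genes, 53.4% stood above all 8 other C. annuum lines in mature green fruit of HYL, against 18.4% of the genes without a call, and of the 622 lower genes 56.3% stood below all 8, against 17.1%. Of these 8 libraries 5 had 25923891 reads or more, and the part of depth in the result was not tested. In leaf, the median level of the higher genes was 18.6 RPKM in HYL, 3.87 RPKM in chiltepin and 1.89 RPKM in ZL1, and that of the lower genes was 0.514 RPKM in HYL, 2.90 RPKM in chiltepin and 14.7 RPKM in ZL1. Chiltepin leaf was nearer to ZL1 leaf than to HYL leaf in 66.3% of the higher genes, in 34.9% of the lower genes and in 56.3% of the genes without a call. It was nearer to the line with the lower level in both groups. It lay below both lines in 34.4% of the higher and 27.3% of the lower genes, against 57.1% of all tested genes. Above both lines it lay in 18.8% of the higher and 9.16% of the lower genes, against 24.3% of all tested genes. Chiltepin leaf was sequenced to 26855552 reads, deeper than any of the 6 libraries.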

How the data were processed

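The deposited table holds RPKM values, which the authors normalised for gene length and library size. The sources used here name no aligner, counting tool, genome build or annotation. Poly(A) RNA was selected with oligo(dT) beads, per the labels' protocols, and read in pairs on an Illumina HiSeq, per the design text. Read totals and gene lengths were recovered from the steps between values for 25556 of 31426 genes, with lengths taken as multiples of 3, and 99.99% of their values were whole within 0.01 reads. The recovery and the fits were also run on simulated data, and the outcome is not given here. One breaker library whose labels name both lines was left unassigned and not used.

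Comparisons used limma 3.58.1 in R 4.3.3 (lmFit, eBayes with trend, two-sided) on log2(RPKM + 1), keeping genes that reached 1 RPKM in 3 or more of 6 libraries, with organ as a block, Benjamini-Hochberg adjustment over all 19903 genes and a threshold of 0.05. Fold changes on this scale understate the change of low genes. Organs served as the 3 replicate pairs, so p-values measure the spread of the line difference among organs and not among plants. The organ pairs the libraries by label. Genes were named as the 2 largest differences each way among called genes without overlap of the lines and with 10 RPKM or more in the higher one, as the largest difference each way in 1 organ with both other organs within 1 log2 unit, as the highest gene silent in 1 line, as the ZL1 organ-enriched genes most kept and most lost in HYL, and as the called genes most opposite in fruit. Alternatives were another pseudocount, filter, scaling or model, and leaving out each library. The members, gene groups and rules were chosen with earlier results of these data known.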

Additional observations from a re-analysis of the deposited data

Results flagged for a closer look

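In 3 named genes all 3 organ pairs differed one way between HYL and ZL1 and both fruit pairs the other way. Capana01g002745 was lower in the organs of HYL (mean log2 difference -1.48) and higher in fruit (4.27), and the test of fruit against organs gave a limma adjusted p of 0.0496. Capana05g000365 was higher in the organs (2.52) and lower in fruit (-3.91), with a limma adjusted p of 0.0831 for the difference. Capana03g000778 was higher in the organs (6.79) and lower in fruit (-2.96), with a limma adjusted p of 0.108, so for the last 2 genes the difference did not pass. The first 2 were named because they were most opposite in fruit, so their pattern is a description.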

How the results depend on the processing

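The 1032 calls (410 higher, 622 lower in HYL) became 370 (118 and 252) with no filter, 591 (247 and 344) with a filter of 5 RPKM and 447 (132 and 315) with no replicate block, that is, without the organ pairs. They numbered 989 with a pseudocount of 0.1 RPKM, 1046 with median-of-ratios scaling, 1075 without the trend and 1120 in a fit of 10 libraries. Leaving out 1 library gave 0 to 958 calls, 0 to 329 higher and 0 to 660 lower, and leaving out both stems, added once the data had been seen, gave 0. With 1 library out, its partner of the same organ no longer counts in the estimate and 1 residual degree of freedom remains. Genes silent in 1 line can also leave the tested set. Genes at least 4-fold apart numbered 2224 in root, 3388 in stem and 2650 in leaf with a pseudocount of 0.1 RPKM, 961 in leaf with a filter of 5 RPKM, and 4510, 6823 and 4985 at 2-fold. Of ZL1 root genes, 52.4% were also enriched in HYL root with a pseudocount of 0.1 RPKM and 31.4% with a filter of 5 RPKM, which removes genes seen in fewer than 3 libraries, and 69.1%, 34.2% and 43.8% of root, stem and leaf genes were at 2-fold. Genes silent in 1 line numbered 219 (HYL) and 83 (ZL1) at 1 RPKM. The same sign in fruit was found in 97.5% of higher and 93.7% of lower calls with no filter, in 85.8% of lower calls with a filter of 5 RPKM, and in 75.7% to 84.8% of higher and 70.3% to 100% of lower calls (the last from 1 gene) with 1 library out. The cause of these changes was not tested unless named. The called genes kept the sign of their difference wherever they were tested, which their choice favours, and scaling turned the majority in stem.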

Other observations

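Neighbouring IDs were compared in the list of tested genes. Of the 622 genes lower in HYL, 116 (18.6%) had a tested neighbour in the list, with the same ID prefix, that was also called lower, against 5.08% of all tested genes. Of the 410 higher genes, 55 (13.4%) had a neighbour called higher, against 3.45% of all tested genes. The order of IDs was taken from the table, and whether it follows the genome is not given in the sources used here. By ID prefix, the share of tested genes called was between 3.89% (Capana12) and 6.71% (Capana00).

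Among 5 equal groups of tested genes by mean log2(RPKM + 1), 9.77% were called in the lowest group (120 higher and 269 lower in HYL) and 2.86% in the highest (54 higher and 60 lower).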
